A study of Mus musculus with 11 samples.

Results

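The 4 genes described here encode subunits of voltage-gated calcium channels: Cacna1h, Cacna1e, Cacnb2 and Cacna1f. They were chosen by gene symbol, and each has 1 row among the 417 gene rows of the deposited expression table. The libraries hold RNA of mouse spleen dendritic cells, enriched with magnetic beads that remove other cells, so the enriched cells were not sorted for a positive marker. The 5 C105F/+ libraries (replicates 2 to 6) came from mice with 1 mutant copy of Umod, the gene of the kidney protein uromodulin. The mutation puts phenylalanine in place of a cysteine, and the labels write it both as C105F and as C106F. The change was made with Cas9 and a donor strand in C57BL/6J embryos. The 6 wild type libraries (replicates 1 to 6) came from littermates of the same strain, and all mice were 12 to 16 weeks old. The labels state no sex, batch or injury and do not tie libraries to separate animals. The p-values here therefore reflect the spread among libraries, which may be technical.

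The pore of a voltage-gated calcium channel is formed by 1 large alpha 1 protein with repeats that each hold a voltage sensor and a pore loop. T-type channels open at weak depolarization and can work without accessory subunits, whereas R-type and L-type channels open at stronger depolarization and assemble with a cytoplasmic beta subunit that controls their traffic to the membrane and their gating. In most leukocytes calcium enters mainly through store-operated Orai channels, and the part of voltage-gated subunits in dendritic cells is less settled. Cacna1h encodes the T-type alpha 1H subunit, Cacna1e the R-type alpha 1E subunit, and Cacna1f the L-type alpha 1F subunit that is best known from photoreceptors. Cacnb2 encodes the beta 2 subunit.

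The coding sequence of the beta-binding stretch is shown because it sets the R-type and L-type subunits apart from the T-type one. The beta subunit binds the linker between the first and the second repeat of R-type and L-type alpha 1 proteins, in a short conserved stretch named the alpha interaction domain. Its consensus matched 1 time in the coding sequence of Cacna1e and 1 time in that of Cacna1f, and 0 times in that of Cacna1h. The sequences below are 5′ to 3′ on the coding strand, from GENCODE M21 transcripts on GRCm38 (mm10), and the capitals mark the conserved glycine, tyrosine, tryptophan and isoleucine codons.
Cacna1e: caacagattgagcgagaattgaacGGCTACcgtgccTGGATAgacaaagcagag
Cacna1f: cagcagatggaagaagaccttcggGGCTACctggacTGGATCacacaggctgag
The Cacna1e stretch lies at chr1:154488837-154493353 on the minus strand, across an intron between coding exons that start with exon 8. The Cacna1f stretch lies at chrX:7613861-7613914 on the plus strand, in exon 9. The pair shared 33 of 54 bases.

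The pore loop of the third repeat sets T-type subunits apart from the others. Each repeat contributes 1 acidic residue to the ring that selects calcium, and in T-type channels the residue of the third repeat is an aspartate in place of a glutamate. The capitals mark that codon.
Cacna1h: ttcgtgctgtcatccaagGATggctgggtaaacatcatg
Cacna1e: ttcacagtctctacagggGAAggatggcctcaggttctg
Cacna1f: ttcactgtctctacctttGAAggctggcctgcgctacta
The Cacna1h stretch lies at chr17:25383490-25383528 on the minus strand, in exon 24. Those of Cacna1e (chr1:154443996-154444903, minus strand) and Cacna1f (chrX:7623845-7625177, plus strand) cross an intron. Cacna1e and Cacna1f shared 28 of 39 bases here, while Cacna1h shared 19 with Cacna1e and 18 with Cacna1f. The short reads were counted per gene, so none of these stretches was measured on its own.

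In C105F/+ dendritic cell libraries the T-type gene Cacna1h, the R-type gene Cacna1e and the beta gene Cacnb2 were higher than in wild type, by 7.10-fold, 3.08-fold and 2.13-fold. The L-type gene Cacna1f was on average 3.60-fold lower but did not pass the threshold. By edgeR's quasi-likelihood test on read counts, 3 of the 4 genes had an adjusted p under 0.05, all higher. Of the 321 rows tested, 74.5% passed, 52.6% as higher and 21.8% as lower, so a share of 3 in 4 is near the background and says nothing particular about calcium channels. With TMM scaling fitted to these selected rows, 13 rows passed as higher and 83 as lower, and of the 4 genes Cacna1h passed as higher (log2 difference 2.04) and Cacna1f as lower (-2.72). The deposited table lists 3 of the 4 genes as higher, as it does 60.7% of its rows. Rows were kept by the authors on this same contrast, by a 2-fold change and an unadjusted p-value under 0.05, and no p-value for it is independent evidence. The median log2 fold change of the 4 genes was 1.36, against 1.12 over all rows tested. In bulk RNA, fewer cells of a type and less RNA per cell cannot be told apart.

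Cacna1h (Entrez 58226, chromosome 17, 25374285 to 25433783, minus strand, GRCm38) had 1177, 79, 418, 460 and 437 reads in C105F/+ 2 to 6. Divided by the size factors behind the authors' means, these are 595, 74.9, 455, 493 and 529 scaled counts. Wild type libraries had a lowest value of 25.3, a median of 36.4 and a highest value of 142 scaled counts. C105F/+ 2, 4, 5 and 6 lay well above every wild type library, whereas C105F/+ 3 lay below wild type 4 and wild type 5. The means were 429 ± 205 (SD, n = 5) and 60.3 ± 46.7 (SD, n = 6). On the log2 scale the difference was 2.83 (SE 0.58, edgeR adjusted p = 0.0146, exact permutation p = 0.0108, two-sided). The adjusted p for Cacna1h was 0.000362 in the authors' deposited table, where 2 of the 3 subunit genes with such a value, Cacna1h and Cacna1e, were under 0.05, against 37.6% of the 295 rows with one.

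Cacna1e (Entrez 12290, chromosome 1, 154390731 to 154884501, minus strand) had 1508, 700.0, 1703, 1869.7 and 1596 scaled counts in C105F/+ 2 to 6. In wild type the lowest value was 78.5, the median 376 and the highest 1019. Again C105F/+ 3 was the low library of its group and lay within the wild type range, and the other 4 lay above it. Wild type 4, the highest wild type library for Cacna1h, was the lowest for Cacna1e. The means were 1475 ± 454 (SD, n = 5) and 478 ± 329 (SD, n = 6), a log2 difference of 1.62 (SE 0.50, edgeR adjusted p = 0.0294, exact permutation p = 0.0108). For Cacna1e the adjusted p was 0.0366 in the authors' deposited table. Leaving out C105F/+ 2, 5 or 6 gave folds of 3.07, 2.88 and 3.02 with an edgeR adjusted p of 0.0617, 0.0681 and 0.0638, in fits where 11, 13 and 17 rows of the whole table passed.

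Cacnb2 (Entrez 12296, chromosome 2, 14603088 to 14987908, plus strand) had 104, 90.1, 154, 196 and 161 scaled counts in C105F/+ 2 to 6, against a lowest value of 20.2, a median of 75.4 and a highest value of 99.2 in wild type. C105F/+ 3 fell inside the wild type range and C105F/+ 2 lay just above it. The means were 141 ± 43.5 (SD, n = 5) and 66.0 ± 31.4 (SD, n = 6). The log2 difference of 1.09 (SE 0.47) had an edgeR adjusted p of 0.0465 and an exact permutation p of 0.0173. It was the least firm of the 3 higher genes. The adjusted p in the authors' deposited table was 0.103, and edgeR's stayed under 0.05 in 2 of the 11 fits that left out 1 library, those without C105F/+ 3 (0.0299) and without wild type 1 (0.0465), against 0.0555 to 0.105 in the other 9.

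Cacna1f (Entrez 54652, chromosome X, 7607083 to 7635196, plus strand) was close to the limit of detection. C105F/+ 2 to 6 had 24, 0, 0, 5 and 7 reads, which are 12.1, 0, 0, 5.35 and 8.47 scaled counts, and a count of 0 allows up to 2.85 scaled counts in C105F/+ 3 and 3.27 in C105F/+ 4. The floor is 3 reads per library and covers counting error only. Wild type libraries ran from 7.58 through a median of 19.7 to 32.7 scaled counts, and 3 of 5 C105F/+ libraries lay below all of them. The log2 difference was -1.85 (SE 0.84, edgeR adjusted p = 0.0535, exact permutation p = 0.0152). Without C105F/+ 2 the fold was 5.63 (edgeR adjusted p = 0.0682). The authors' deposited table gives no adjusted p for this gene.

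**Figure D1:**
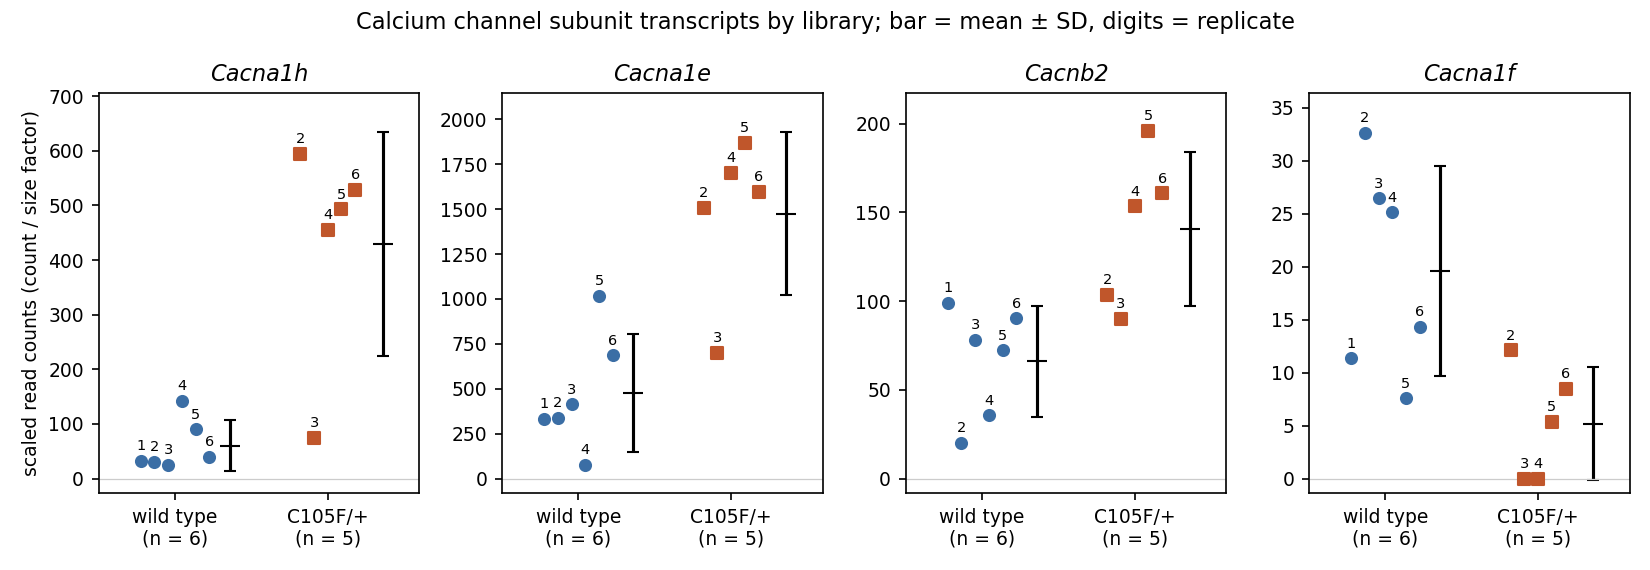
Scaled read counts (count divided by size factor, linear axis) of each subunit gene in 6 wild type and 5 C105F/+ libraries; points are libraries with their replicate number, bars are mean ± SD. C105F/+ 3 lies at 74.9 for Cacna1h and 700.0 for Cacna1e, inside the wild type ranges, and Cacna1f stays under 33 in every library.

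For none of the 4 genes were the groups fully separate, although 13.4% of all rows had groups that did not overlap, 10.1% with C105F/+ higher and 3.36% with C105F/+ lower. By exact permutation over the 462 assignments of 5 of 11 libraries, all 4 had a p under 0.05, as did 67.6% of all rows. In Cacna1h, Cacna1e and Cacnb2, 4 of 5 C105F/+ libraries exceeded every wild type library, and C105F/+ 3 was each time the exception. C105F/+ 3 and wild type 4 were also left out together, a choice made after their values were seen, so no test is given. Cacna1h was then 11.7-fold higher in place of 7.10-fold, Cacna1e was 2.99-fold and Cacnb2 2.13-fold higher, and Cacna1f was 2.71-fold lower. On the authors' log2 normalized scale, which draws low counts together, the differences over all 11 libraries were 1.54 for Cacna1h, 1.199 for Cacna1e, 0.52 for Cacnb2 and -0.21 for Cacna1f.

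Some exons of 2 of the genes overlap other genes, and the sources used here do not say whether reads were counted by strand. Tpsg1, a tryptase gene on the opposite strand, shares 158 of the 9763 exon bases of Cacna1h. The predicted genes Gm10848, Gm10849 and Gm13269, on the opposite strand, share 968 of the 13228 exon bases of Cacnb2. No annotated exon of another gene overlaps those of Cacna1e or Cacna1f.

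Per transcript length, Cacna1e was the most abundant of the 4 subunits in both genotypes. FPKM values, which the authors scaled to length and depth, averaged 2.36 ± 0.80 for Cacna1e in C105F/+ (SD, n = 5), 1.07 ± 0.53 for Cacna1h, 0.72 ± 0.24 for Cacnb2 and 0.017 ± 0.018 for Cacna1f. In wild type the means were 0.68 ± 0.50 for Cacna1e (SD, n = 6), 0.30 ± 0.14 for Cacnb2, 0.14 ± 0.12 for Cacna1h and 0.056 ± 0.029 for Cacna1f. Cacna1h thus stood above Cacnb2 in the C105F/+ means and below it in the wild type means. Pooled over all 11 libraries, which describes neither genotype alone, the median row of the table had a mean of 0.60 FPKM, and 65.0% of the rows lay below Cacna1e, 48.7% below Cacna1h, 45.3% below Cacnb2 and 10.3% below Cacna1f.

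No pair of neighbours in this order passed an exact sign-flip test, which in C105F/+ could not reach 0.05 with 5 libraries. In wild type Cacna1e exceeded Cacnb2 in 5 of 6 libraries (log2 ratio 0.98 ± 1.11, exact sign-flip p = 0.0938, adjusted p = 0.156 over 3 neighbour pairs), Cacnb2 exceeded Cacna1h in 5 of 6 (1.23 ± 1.39) and Cacna1h exceeded Cacna1f in 4 of 6 (0.94 ± 1.29, adjusted exact p = 0.156 for both). In C105F/+, Cacna1e exceeded Cacna1h in 5 of 5 libraries (1.36 ± 0.70) and Cacnb2 exceeded Cacna1f in 5 of 5 (5.00 ± 1.05), each by more than the SD and with an exact p of 0.0625, the smallest that 5 libraries allow. Cacna1h exceeded Cacnb2 in 4 of 5 (0.32 ± 1.00, exact sign-flip p = 0.5). Cacna1f was above Cacna1h in wild type 2 and wild type 3. Wild type 4 was the only wild type library led by Cacna1h (0.34 FPKM, against 0.12 for Cacna1e), and C105F/+ 3 was the only C105F/+ library with Cacna1h (0.16) below Cacnb2 (0.41).

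**Figure D2:**
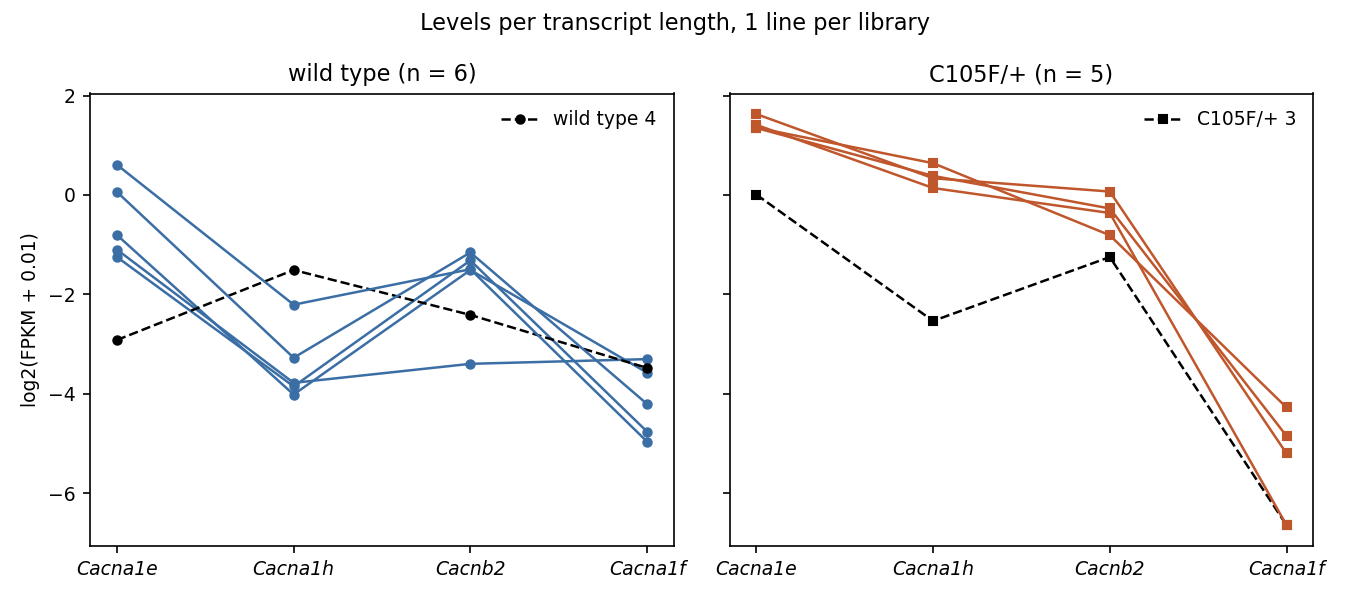
Level per transcript length, log2(FPKM + 0.01), of the 4 subunits, with 1 line per library and the libraries wild type 4 and C105F/+ 3 dashed in black. Cacna1e leads in every library but wild type 4, and Cacna1f is the lowest in all C105F/+ libraries.

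The FPKM of the 3 alpha 1 genes summed to 3.45 ± 1.30 in the mutant group (SD, n = 5) and to 0.87 ± 0.49 in the wild type group (SD, n = 6). This sum and the share of Cacna1f are given with no test, since the rows had been selected on this contrast. Shares of this sum do not depend on how libraries are scaled. Cacna1f made up 0 to 1.01% of it in C105F/+ and 1.27% to 15.0% in wild type, so the groups did not overlap. Cacna1h made up 28.6% ± 8.88 in C105F/+ and 18.7% ± 21.7 in wild type, with no difference beyond the spread (exact permutation p = 0.385). That wild type spread comes from wild type 4, in which Cacna1h took 62.8% of the sum. The other 5 wild type libraries had 7.53% to 11.9%, and the C105F/+ libraries 14.0% to 37.4%. Setting wild type 4 apart was chosen after its value was seen, so no test is given without it.

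The ratios between subunits within a library were compared between genotypes for all 6 pairs, a test added after the levels were seen. Rows had been selected on this contrast, the other 3 genes as higher and Cacna1f as lower, so a ratio to Cacna1f had to be higher in C105F/+ and is given as a description with no test. The log2 ratio of Cacna1h to Cacna1f was 5.32 ± 0.98 in C105F/+ against 0.94 ± 1.29 in wild type, a difference of 4.37, with all 5 C105F/+ libraries above all wild type libraries. For Cacna1e to Cacna1f the difference was 3.52, and for Cacnb2 to Cacna1f 2.83. These ratios rest on FPKM of Cacna1f that are listed at 0 in 2 libraries, and with 0.1 in place of 0.01 added to each FPKM the 3 differences were 2.61, 2.24 and 1.496. The 3 higher genes were not told apart by this test. Cacna1h to Cacna1e differed by 0.85 (exact permutation p = 0.364, unadjusted), Cacna1h to Cacnb2 by 1.54 (0.0758) and Cacna1e to Cacnb2 by 0.69 (0.216). None of these passed even before adjustment. Leaving out wild type 4, already seen to stand apart, moved the first of these differences to 1.57 and the second to 1.97. These 2 values are given with no test, since that library was chosen by its value.

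**Figure D3:**
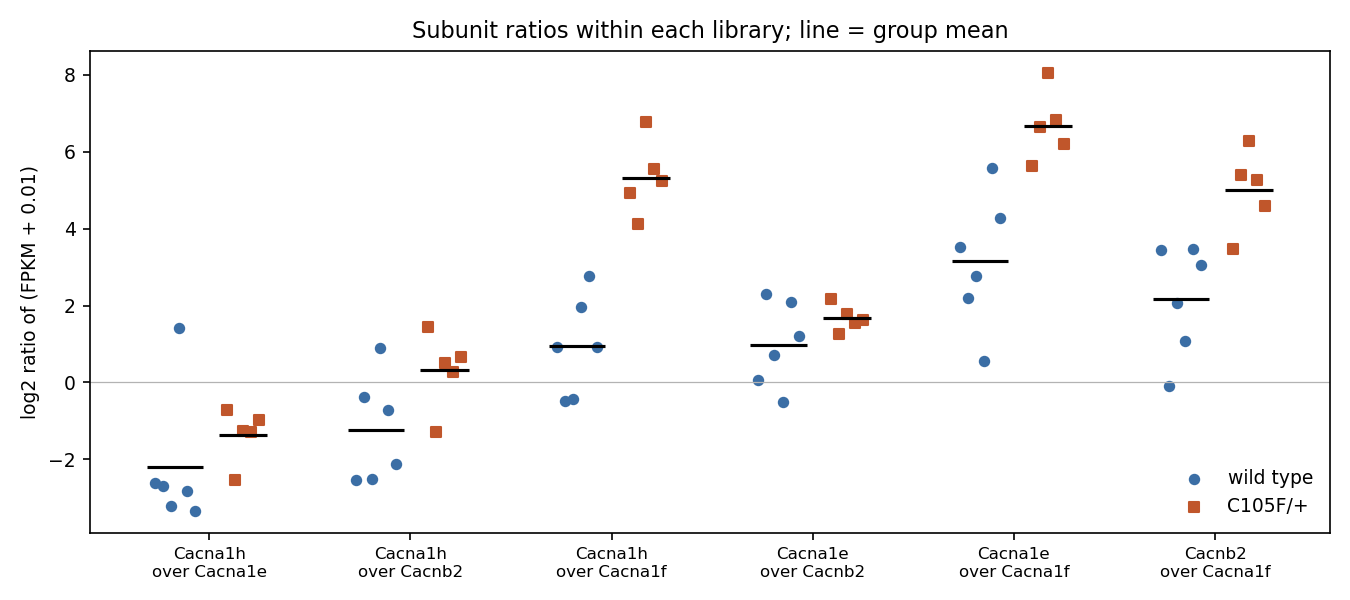
Log2 ratio of (FPKM + 0.01) between each pair of subunits in 6 wild type (circles) and 5 C105F/+ (squares) libraries, with group means as lines. In the ratios of Cacna1h and Cacna1e to Cacna1f all C105F/+ libraries lie above all wild type libraries, and the single wild type circle above 0 for Cacna1h over Cacna1e is wild type 4.

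Markers of plasma cells, the antibody-secreting cells of the spleen, were low in the C105F/+ library that was low for Cacna1h. Of 28 listed plasma cell markers 10 had rows, and all 10 were higher in C105F/+ by edgeR, as were 52.6% of all rows tested. This direction was not particular to plasma cells. All rows were also higher in the B cell (6 rows) and T cell (3) lists. The same held for the monocyte and macrophage, stroma and endothelium, and dendritic cell lists (2 rows each). Both rows of the striated muscle, neuron and retina list were lower, and the remaining lists were mixed or passed in part. With TMM 2 of the 10 plasma cell rows passed as higher, among 13 rows in the whole table. Jchain, which joins antibody polymers, had 13489 scaled counts in C105F/+ 3, below the wild type range of 14972 to 24371, whereas C105F/+ 2, 4, 5 and 6 had 103802 to 196308. The other 9 markers together had 5893 scaled counts in C105F/+ 3, 5804 to 8267 in wild type, and 16559 to 26055 in C105F/+ 2, 4, 5 and 6. Thus the C105F/+ library without the high plasma cell transcripts was also the one without high Cacna1h. Txndc5 and Mzb1, both of the secretory pathway and the most abundant listed markers after Jchain, showed the same split: Mzb1 had 365 scaled counts in C105F/+ 3, 565 to 1271 in wild type, and 2034 to 3862 in the remaining C105F/+ libraries. For Txndc5 these values were 4619, 3712 to 6135, and 10839 to 15134 scaled counts. The part of plasma cells in the difference of Cacna1h was not tested.

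A score for these transcripts, the mean z-score of the 10 marker rows, fell into separate clusters, with 4 C105F/+ libraries at 0.69 to 1.35 and the other 7 libraries at -0.93 to -0.31. A correlation over all 11 libraries would restate that split, so it was computed within wild type, where Cacna1h (r = 0.17, exact permutation p = 0.689; rho = -0.14, p = 0.803), Cacna1e (r = 0.45, p = 0.319; rho = 0.37, p = 0.497), Cacnb2 (r = -0.01, p = 0.928; rho = -0.49, p = 0.356) and Cacna1f (r = -0.26, p = 0.603; rho = 0.03, p = 1) showed no relation that passed over 6 libraries. The adjusted exact p over the 4 genes was 0.919 to 0.928 for r and 0.994 to 1 for rho. Without wild type 3 and 5, which lie farthest from the median score, r was 0.01 for Cacna1h, -0.36 for Cacna1e, -0.96 for Cacnb2 and 0.90 for Cacna1f. The last 2 values rest on 4 libraries. Wild type 4, with the highest Cacna1h of its group, had a score of -0.60 among wild type scores of -0.81 to -0.31. That mean hides a split among its markers. Wild type 4 had the highest wild type values of Pou2af1 (1523 scaled counts, group median 218), Sdc1 (1290, median 246) and Mzb1 (1271, median 778). It had the lowest of Jchain (14972), Txndc5 (3712), Cd28 (42.9), Tnfrsf17 (8.38) and Ccr10 (3.14), and lay between for Derl3 and Eaf2.

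Taken as deviations from each genotype's mean over all 11 libraries, r with the plasma cell score was 0.76 for Cacna1h (exact permutation p = 0.0406 within genotype; rho = 0.49, p = 0.102), 0.68 for Cacna1f (p = 0.0538; rho = 0.70, p = 0.0423), 0.39 for Cacna1e (p = 0.0725; rho = 0.37, p = 0.206) and 0.22 for Cacnb2 (p = 0.406; rho = -0.01, p = 0.988). None passed after adjustment over the 4 genes (smallest adjusted exact p = 0.0966 for r and 0.169 for rho). The value of Cacna1h rested on C105F/+ 3. It was 0.27 without that library, 0.89 without wild type 4, and 0.37 without C105F/+ 2 and C105F/+ 3, the 2 farthest from the median deviation. In that last case r was 0.22 for Cacna1e, 0.08 for Cacnb2 and 0.43 for Cacna1f. Single libraries also moved Cacna1e, to 0.13 without C105F/+ 3 and 0.63 without wild type 4, and Cacnb2, to -0.19 without C105F/+ 3.

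**Figure D4:**
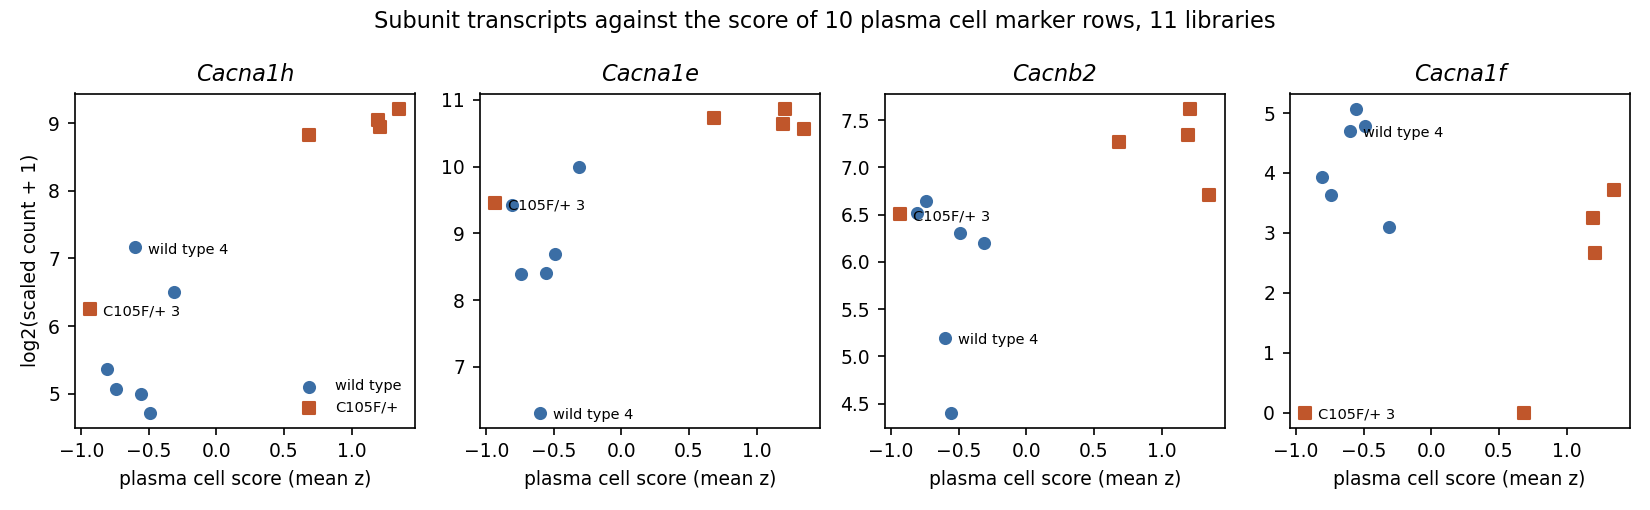
Log2(scaled count + 1) of each subunit against the plasma cell score (mean z of 10 marker rows over 11 libraries), with circles for wild type, squares for C105F/+ and the libraries wild type 4 and C105F/+ 3 named. C105F/+ 3 sits among the wild type libraries at a score of -0.93, and wild type 4 is high for Cacna1h and lowest for Cacna1e.

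Markers of other cells also differed between the libraries that set these results. C105F/+ 3 was the lowest of its group in 9 of the 11 marker lists with rows, all but the neutrophil list and the erythroid and platelet list. Its 6 B cell marker rows summed to 1260 scaled counts (group highest 8806), its 3 T cell rows to 200.1 (1266), its 2 monocyte and macrophage rows to 2000.4 (10765) and its 2 dendritic cell rows to 1454 (4885). Wild type 4 had the highest wild type sums for B cells (3530), NK cells (262 of a range from 43.0), neutrophils (7603, from 1014) and eosinophils, basophils and mast cells (1284, from 340), and for striated muscle, neuron and retina (328, from 19.5). It had the lowest wild type sums for monocytes and macrophages (320.4, up to 5266), erythroid cells and platelets (212, up to 1441) and stroma and endothelium (128, up to 793). It also had the lowest value of all libraries for Itgae (99.5 scaled counts, with 460 to 896 in wild type 1, 2, 3, 5 and 6) and for Pacsin1 (68.1, with 538 to 795), the only 2 of 23 listed dendritic cell markers with a row. The labelled cell type could therefore be checked against those 2 genes only. Their part in the subunit levels was not tested.

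The rows most like each subunit were found by the Pearson correlation of log2(scaled count + 1) after removing the genotype means, over 11 libraries and 331 candidate rows. For Cacna1h they were Nlrp12, an intracellular receptor of the NLR family (r = 0.98), Lax1, a membrane adaptor of lymphocytes (0.96), and Creb3l2, a transcription factor of the endoplasmic reticulum (0.96). Nlrp12 was near the floor, with 0 reads in C105F/+ 3 and in 4 of 6 wild type libraries, and 13 reads in wild type 4. Lax1 had 81 scaled counts in C105F/+ 3 and 460 in wild type 4, so it shared both departures of Cacna1h. For Cacna1e the nearest rows were Gprc5c, an orphan receptor (0.97), A530099J19Rik (0.96) and Clnk, a signalling adaptor (0.96), all of them low in wild type 4, where Gprc5c had 71 scaled counts and the remaining wild type libraries 265 to 682. Likeness was weaker for Cacnb2, whose nearest rows were Il17rb, a receptor chain for interleukin 25 (0.78), the coronin Coro2b (0.78) and the myosin phosphatase subunit Ppp1r12b (0.73). For Cacna1f they were the eosinophil ribonuclease Ear1 (0.94), Gimap6 (0.90) and Tmem71 (0.90). All of these were higher in C105F/+ by edgeR while the mean of Cacna1f was lower there. This likeness therefore lay within genotypes and not between them. Ear1 and Cacna1f both had 0 reads in C105F/+ 3 and C105F/+ 4, and these shared zeros enter their r. Between genotypes Ear1 had an exact permutation p of 0.385. Without C105F/+ 3 and wild type 4 the r of these nearest rows was 0.79 to 0.87 for Cacna1h, 0.87 to 0.89 for Cacna1e, 0.73 to 0.80 for Cacnb2 and 0.89 to 0.92 for Cacna1f. The zeros of C105F/+ 4 remain in the last of these.

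Cacna1h and Cacna1e did not vary together over all 11 libraries in this measure (r = 0.04). Without C105F/+ 3 and wild type 4, left out after their values were seen, r was 0.83 over 9 libraries. The C105F/+ libraries among these did not share that direction. C105F/+ 2 had their highest Cacna1h (595 scaled counts) and their lowest Cacna1e (1508). Of the wild type libraries kept, wild type 5 was the highest for both genes (90.2 and 1019). Cacna1e and Cacnb2 had r = 0.53, and 0.36 without those 2 libraries. Cacna1e had r = 0.90 with Itgae and 0.84 with Pacsin1 over 11 libraries, and 0.44 and -0.12 without the same 2 libraries. Cacna1h had r = 0.94 with the B lineage coactivator gene Pou2af1, 0.88 with Sdc1, 0.88 with Mzb1, 0.74 with Jchain and 0.63 with Txndc5. In order of likeness these ranked 5, 13, 14, 34 and 68 among 331 candidate rows. Without the same 2 libraries the values were 0.58, 0.43, 0.50, 0.55 and 0.59. All of these points share library preparation and depth, and the values describe likeness with no test.

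Few of the other listed genes of calcium handling had rows. Only genes that passed the authors' filter have a row, so a missing row is no result about a gene. The lists are also incomplete, since Prkca and Catsperg1 had rows and were on none of them. Of 26 listed channel subunits (10 alpha 1, 4 beta, 4 alpha 2 delta and 8 gamma genes) only the 4 described here had rows. Of 104 listed genes for channel regulation, store release and store-operated entry, pumps and exchangers, other calcium-permeable channels and calcium effectors, 1 had a row. This was Stac2, an adaptor that binds L-type channels, with 224, 24.7, 84.9, 222 and 213 scaled counts in C105F/+ 2 to 6 and 0 to 104.7 in wild type, with a median of 26.3. C105F/+ 3 was low here too, and wild type 4 was the highest wild type library. The log2 difference of Stac2 was 2.16 (SE 0.84), 4.48-fold, with an edgeR adjusted p of 0.0388 and an exact permutation p of 0.0368, with an adjusted p of 0.125 in the authors' deposited table. Of 54 other voltage-gated channel genes, Kcnh1, a potassium channel, had a row, with 0 reads in all 5 C105F/+ libraries and 0, 0, 3, 11, 14 and 15 reads in wild type 1 to 6, too few for edgeR's filter (exact permutation p = 0.0606). Listed genes without a row, Orai and Stim among them, were not analysed here.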

How the data were processed

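The deposited table was made by the authors. Per the file headers it holds read counts per gene and library without normalization, FPKM, and log2 normalized values made by a transformation that the sources do not describe. It also holds the authors' signed fold change, the log2 standard error, a score equal to log2 fold over that error, the mean signal (counts over size factors), and unadjusted and adjusted p-values. The submitters' processing notes name, without settings, the build mm10, the aligners HISAT2 2.1.0 and Bowtie2 2.3.4.1, the assembler StringTie 2.1.3b, the read tools Trimmomatic 0.38 and FastQC 0.11.7, and DESeq2. The smallest absolute fold among the 417 rows was 2.0009 and the largest unadjusted p-value 0.0493; 122 rows have no adjusted p.

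Library totals are not in the table. Size factors were recovered from the deposited means by least squares (0.615 in wild type 1 to 1.98 in C105F/+ 2, largest relative error 2.11e-14) and give relative depth; the sums over these rows (195414 to 1198500) are not depths. The main test on counts was edgeR 4.0.16 in R 4.3.3 (filterByExpr, glmQLFit, glmQLFTest, Benjamini-Hochberg over 321 rows); its SE is the log2 fold over the square root of F. Alternatives used limma 3.58.1 and DESeq2 1.42.0. The fits were tested on simulated counts with the same dispersion for every row and no selection of rows. That test does not cover the selection and the uneven spread of the rows here. Exact permutation tests are two-sided, on log2(scaled count + 1) for single genes and on log2(FPKM + 0.01) for ratios and sign-flips. The test on the share of Cacna1h used untransformed percentages. Named genes are the 4 members, all rows of the calcium and voltage-gated channel lists, the 3 most abundant plasma cell rows and the 3 rows most like each member (mean of at least 10 scaled counts); others were chosen after their values were seen. Members and lists were chosen with earlier results of these data known. Sequences come from GENCODE M21 transcripts paired with the deposited RefSeq identifiers and were translated to find the domain consensus. Promoters and proteins were not used here.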

Additional observations from a re-analysis of the deposited data

Results flagged for a closer look

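Cacna1h in C105F/+ 3, at 74.9 scaled counts, was far below the next C105F/+ library (455): this gap was 0.73 of the whole range of the group, above Dixon's critical value of 0.71 for 5 libraries. Of the 8 groups of values examined (4 genes in 2 genotypes) it was the only one. Chance flags about 1 in 20 for each group, so 1 flag among 8 groups, just above the critical value, is weak evidence. The same library was the lowest of its group in 9 of the 11 lists of cell type markers with rows, plasma, B, T, NK, monocyte and dendritic cell lists among them. Their part was not tested.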

How the results depend on the processing

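All 4 genes kept their direction in each of the 20 other fits. The labels do not say whether replicate numbers pair the libraries. Same-numbered libraries deviated together (r over 0.1) in 1 of 5 pairs, and 5 pairs over selected rows are too few to settle it. The fit with the replicate block over replicates 2 to 6 gave 0 called rows in place of 239 (166 at an unadjusted p under 0.05), with log2 differences of 2.72 for Cacna1h (adjusted p = 0.0808), 1.79 for Cacna1e (0.0876), 1.38 for Cacnb2 (0.0915) and -2.30 for Cacna1f. TMM over the selected rows moved the median log2 fold change by -0.69 and left 96 called rows, with log2 differences of 2.04 for Cacna1h, 0.94 for Cacna1e (adjusted p = 0.145), 0.43 for Cacnb2 (0.4) and -2.72 for Cacna1f, which passed (0.0315). Cacna1f also passed by DESeq2 (-1.88), and by limma on log2(FPKM + 0.1) (-0.41), log2(FPKM + 0.01) (-1.47) and the deposited log2 normalized values (-0.21). Leaving out 1 library gave 11 to 280 called rows (11, 13 and 17 without C105F/+ 2, 5 and 6; 205, 197 and 204 at an unadjusted p under 0.05), and log2 differences of 2.67 to 3.28 for Cacna1h, 1.40 to 1.99 for Cacna1e, 0.90 to 1.24 for Cacnb2 and -2.49 to -1.54 for Cacna1f, which never passed in these fits. The leave-one-out ranges of the log2 ratio differences were 0.62 to 1.57 for Cacna1h to Cacna1e, 1.26 to 1.97 for Cacna1h to Cacnb2, and 2.38 to 3.21 for Cacnb2 to Cacna1f. The wild type r with plasma cell transcripts changed sign for Cacnb2 with Jchain alone (0.30), on log2(FPKM + 0.01) (0.027) and as deviations over 11 libraries (0.22), and for Cacna1f as deviations over 11 (0.68) or 9 libraries (0.64); Cacna1e with Jchain alone had r = 0.77 (exact permutation p = 0.0194, adjusted p = 0.0778). The causes were not tested. Depth limits Cacna1f, with at most 34 reads in a library.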

Other observations

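Kcnmb4, an accessory subunit of calcium-activated potassium channels that was on none of the lists and was chosen after its values were seen, had 40.9, 28.5, 47.9, 37.5 and 77.4 scaled counts in C105F/+ 2 to 6. Wild type libraries ran from 0 through a median of 10.8 to 44.0, the highest in wild type 4. The fold was 3.33, with an edgeR adjusted p of 0.0511 and an exact permutation p of 0.0173. Its antisense gene Kcnmb4os2 was 4.11-fold higher (edgeR adjusted p = 0.0294), and reads of this pair cannot be told apart if strand was not counted.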
